A study of Mus musculus with 13 samples.

Results

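Tnnc2, Pygm, Myh7, Myl4, Acta2 and Myl9 are 6 genes best known from muscle, and they are described here in neurons of the mouse retrosplenial cortex, a midline cortical area involved in memory and navigation. They were named beforehand because of the pattern of their counts in these same data, so their levels by cell class and by spot are given as descriptions without a test. All 6 have a row in the table of dissociated cells (6 of 15114 genes) and in the table of tissue spots (6 of 32285 genes). The dissociated cells came from microdissected acute slices of wild-type (WT) B6 mice, pooled over slices, in 11 samples labelled as neurons. A deposited table assigned them to 3 animals, and the column names gave each cell a dissection level, anterior, medium or posterior. The tissue spots came from 2 cryosections of 10 µm of flash-frozen WT brain on Visium slides, stained for NeuN and DAPI and called S4 and S8 after their column names. Ages are not given in the sources used here. A spot is a small patch of tissue that can hold several cells. No treatment or mutation was part of the design. Whether an animal's samples are separate dissections is not stated, so samples of 1 animal share their source.

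In striated muscle, force is made where myosin heavy chains such as Myh7 pull on actin filaments, with light chains such as Myl4 bound to the myosin neck. Troponin C, of which Tnnc2 is the fast skeletal form, binds calcium and releases the filament for contraction, and Pygm, the muscle glycogen phosphorylase, frees glucose units from glycogen for that work. Acta2 is the smooth muscle actin and Myl9 a regulatory light chain of smooth muscle, and in brain both are well-known transcripts of the mural cells that wrap arterioles.

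The 765 cells held 2.31e+06 to 1.60e+07 counts per sample, with median totals per cell of 54532 to 210874, lowest in the samples of animal 1 (median 65843 counts, against 132797 and 185995 in animals 2 and 3). Shares of cells were therefore also computed with each cell thinned to 50000 counts, leaving out the 61 cells with fewer. Slc17a7, the vesicular glutamate transporter of excitatory cortical neurons, was counted in 756 of the 765 cells. No class per cell was used from the authors, and 11 clusters were drawn without the 6 genes and without the wider muscle panel, then named only from marker genes. Cluster 1 (205 cells, led by Calb1, Penk and Ddit4l) and the shallow cluster 8 (36 cells) are superficial retrosplenial-like, and cluster 2 (122 cells, led by Thsd7a, Eps8l2 and Hsd11b1) is granular retrosplenial-like. Clusters 3 and 7 (78 and 63 cells) are layer 5 ET-like (extratelencephalic), although none of the 4 ET markers was among the 10 leading genes of cluster 3. Clusters 6 and 9 (70 and 24 cells) are layer 5 IT-like (intratelencephalic). In cluster 6, 3 of the 4 ET markers (Fezf2, Parm1 and Chst8) led as well, as many as IT markers (Deptor, Il1rapl2 and Etv1). Its name rests on 1 IT marker among its 10 leading genes, against 0 ET markers, and is less certain. Cluster 4 (74 cells) is layer 6 IT-like, cluster 5 (71 cells) layer 6 CT-like (corticothalamic) and cluster 10 (11 cells) layer 6b-like. Cluster 11 (11 cells, led by Kcnip1 and Nxph1) stayed unnamed. A layer 5 NP (near-projecting) name could not be given to any cluster. Naming asked for 3 markers, and only 1 of the 4 NP markers, Tshz2, had a row. That marker was at its highest in cluster 11. Levels are the counts of a gene in the summed cells, scaled to a total of 1000000 counts (CPM). Intervals cover counting error only.

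The windows around the transcription starts of Tnnc2 and Pygm are shown first, because these genes shared their cells. The sequences are from RefSeq (GRCm38.p6), run from 250 bases before to 50 bases after the annotated start, and are written 5′ to 3′ on the gene's strand. Tnnc2 lies on chromosome 2, with its window at chr2:164779685-164779984 on the minus strand, and Pygm on chromosome 19, with its window at chr19:6384158-6384457 on the plus strand. Capitals mark E-boxes, CANNTG, a hexamer that myogenic and neuronal basic helix-loop-helix factors can bind.
Tnnc2: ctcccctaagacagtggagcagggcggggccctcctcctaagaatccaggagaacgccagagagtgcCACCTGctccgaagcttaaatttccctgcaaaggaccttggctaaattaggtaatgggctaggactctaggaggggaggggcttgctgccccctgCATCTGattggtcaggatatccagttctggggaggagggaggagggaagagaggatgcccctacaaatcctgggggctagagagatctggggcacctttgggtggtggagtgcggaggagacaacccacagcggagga
Pygm: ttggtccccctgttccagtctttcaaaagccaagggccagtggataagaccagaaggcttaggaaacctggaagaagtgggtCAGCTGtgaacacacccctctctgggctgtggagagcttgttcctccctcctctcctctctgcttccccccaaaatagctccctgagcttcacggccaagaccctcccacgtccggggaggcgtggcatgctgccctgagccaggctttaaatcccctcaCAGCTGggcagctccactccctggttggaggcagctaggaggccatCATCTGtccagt
The Tnnc2 window held 2 E-boxes and the Pygm window 3, read on both strands. An E-box was present in 72.3% of the 32851 windows of this length, so a match is ordinary. The Myl4 window held none. The CArG box, an element bound by serum response factor, was searched as CCWWWWWWGG, with W for A or T. It was matched in 1.63% of windows and, among the 6 genes, in Myl9. Exact matches alone were counted, so a window without a match, such as that of Acta2, can still hold a near match. TATAAA and the MEF2 site, matched in 13.6% and 3.19% of all windows, had no match in the windows of the 6 genes. These matches describe letters in a window and nothing about binding.

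Tnnc2 and Pygm were counted almost wholly in the granular retrosplenial-like cluster 2. Of 2351 Tnnc2 counts, 99.4% lay in this cluster, and of 7568 Pygm counts, 97.8%. The 8 samples with at least 10 cells of cluster 2 gave Tnnc2 a level of 100.3 ± 40.9 CPM (SD, n = 8), lowest in sample 13 at 24.1 CPM, with a median of 105.9 CPM, and highest in sample 18 at 143.5 CPM. The 3 samples with fewer cells of the cluster lay inside this range, at 64.4, 72.3 and 84.4 CPM. Every sample thus held the gene, with a wide spread. Over all cells, Tnnc2 stood at 100.5 CPM in cluster 2 and at no more than 0.493 CPM in any other cluster, with 0 counts in 5 of them. The muscle form of glycogen phosphorylase, Pygm, stood at 320.1 ± 62.5 CPM in cluster 2 (SD, n = 8), from 257 CPM in sample 13 to 444 CPM in sample 18, with a median of 301 CPM. The 3 samples with fewer cells stood at 320.1, 458 and 255 CPM. Over all cells, the next cluster was the layer 5 IT-like cluster 6 at 4.84 CPM of Pygm, where animal 2 stood at 13.6 CPM, animal 3 at 1.38 CPM and animal 1 at 0. For both genes the lowest of the 8 sums of cluster 2 lay above the highest of the 21 sums of other clusters with at least 10 cells, and 0.748% of the 12842 genes with a mean of at least 1 CPM shared this property. Because these sums chose the genes, nothing is read from that count.

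The share of cells told the pair apart. Pygm was counted in 116 of 122 cells of cluster 2 (95.1%, exact binomial 95% interval 89.6% to 98.2%), and Tnnc2 in 77 of the 122 (63.1%, 53.9% to 71.7%). At 50000 counts per cell the shares were 92.2% and 60.0% of 115 cells, so the gap stood at equal depth. Cells of cluster 2 with a count of Tnnc2 had a median total of 231082 counts and those without had 143221. The Tnnc2 share also varied among samples, from 4 of 12 cells in sample 13 to 11 of 11 cells in sample 17, whereas the Pygm share ran from 8 of 9 cells to all cells. Without animal 3 the Tnnc2 share was 52.0% of 75 cells, below the interval given above. Outside cluster 2, Pygm was counted in 0% to 17.6% of the cells of a cluster, and Tnnc2 in no more than 2.82%. The excitatory transporter Slc17a7 was counted in 121 of the 122 cells, although the summed excitatory list (Slc17a7, Slc17a6 and Neurod6) was at its lowest there, at 123 CPM. Parvalbumin (Pvalb), a calcium buffer of fast muscle and of many inhibitory neurons, stood at 168 CPM in this cluster, above its level in clusters 3 and 7 (53.7 and 107 CPM) and below that in cluster 11 (517 CPM). With it, the summed inhibitory list (4 of 6 markers had a row) reached 169 CPM in cluster 2. The 4 oligodendrocyte markers summed to 131 CPM in cluster 2, near the middle of their range over clusters (27.2 to 193 CPM), and the 4 astrocyte markers to 11.96 CPM, their highest. Their part in the Tnnc2 and Pygm levels was not tested.

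**Figure D1:**
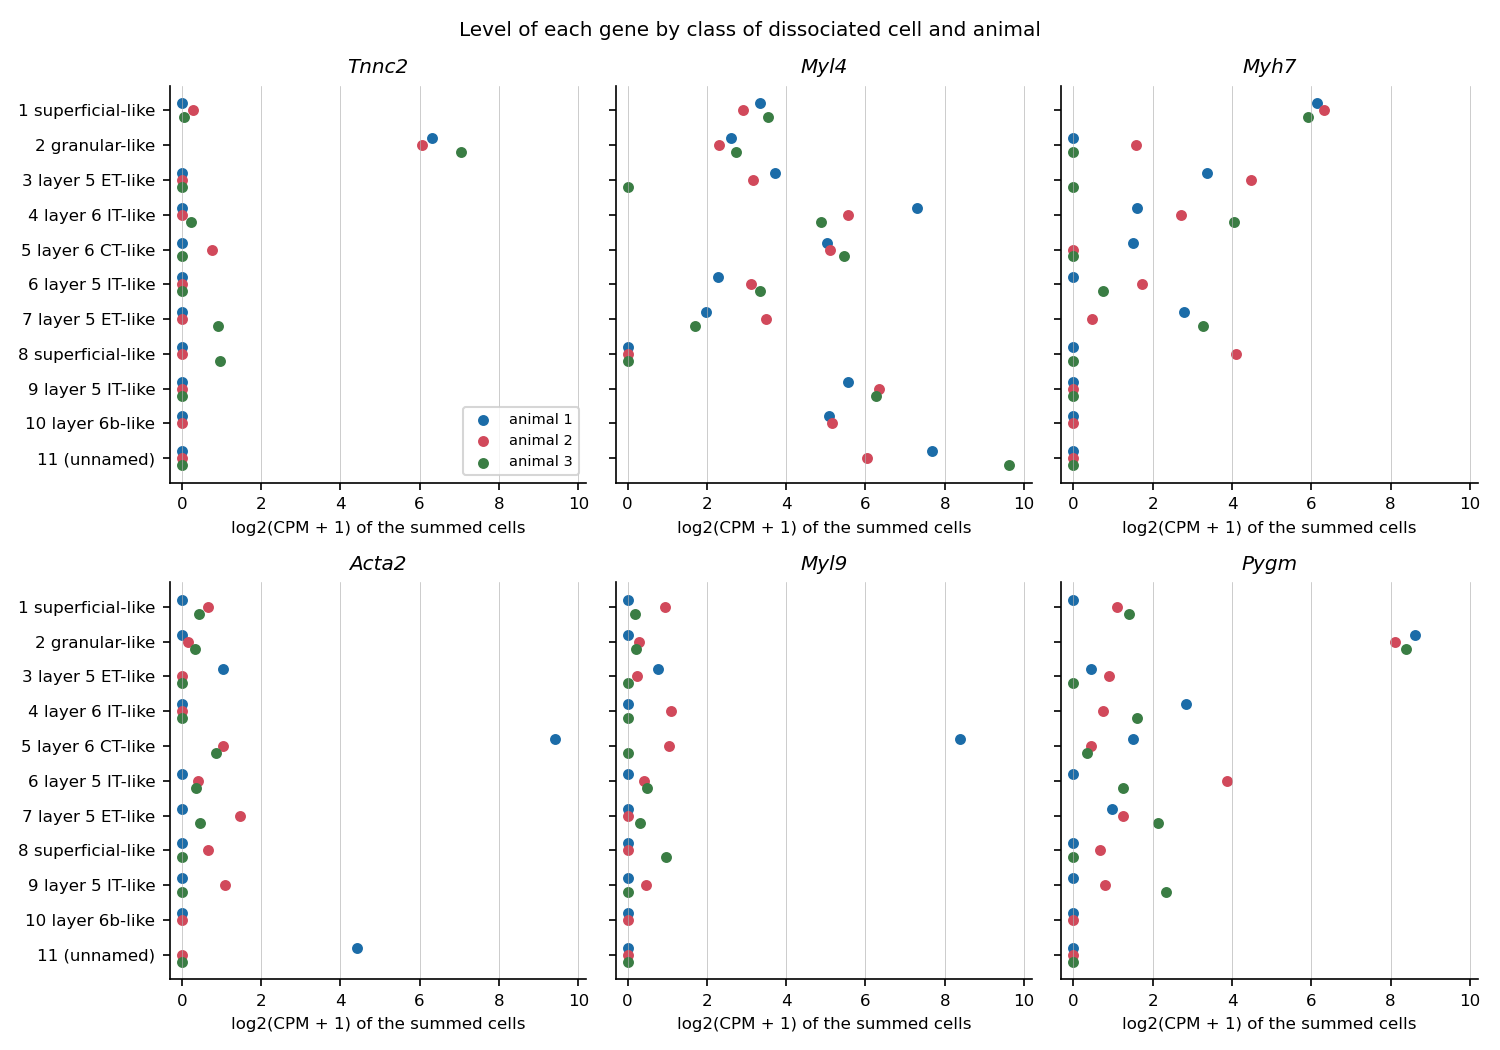
Level of the 6 genes in the 11 clusters, as log2(CPM + 1) on a linear axis. Each point is the sum of an animal's cells in a cluster, also where that is a few cells. Tnnc2 and Pygm stand apart in cluster 2 and Myh7 in cluster 1 in all 3 animals, Myl4 over all cells is highest in clusters 4, 5, 9, 10 and 11, and the high Acta2 and Myl9 points of cluster 5 come from animal 1 alone. The Acta2 point of animal 1 in cluster 11 rests on 1 count.

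Myh7, the slow and cardiac myosin heavy chain, was centred on the superficial retrosplenial-like cluster 1, with 83.4% of its 2426 counts. The 9 samples with at least 10 cells of cluster 1 gave 70.2 ± 23.7 CPM (SD, n = 9), lowest in sample 13 at 44.2 CPM, with a median of 66.8 CPM, and highest in sample 11 at 119 CPM. The samples with fewer cells stood at 30.2 and 100.2 CPM. Summed per animal, the level was 69.3 ± 9.65 CPM (SD, n = 3), a smaller spread than over samples. A count of Myh7 was present in 110 of 205 cells (53.7%, 46.6% to 60.6%), or 52.3% of 193 cells at equal depth. Unlike the pair above, Myh7 had a graded second tier. The layer 5 ET-like cluster 3 stood at 16.99 CPM with 21 of 78 cells, and the layer 6 IT-like cluster 4 at 10.4 CPM with 12 of 74 cells. In cluster 3 the 5 samples with 10 cells ran from 0 CPM in sample 1 to 29.3 CPM in sample 12. Their mean was 16.6 ± 11.3 CPM (SD, n = 5). Animals 1 and 2 stood at 9.31 and 21.3 CPM in cluster 3, and at 2.07 and 5.61 CPM in cluster 4. Animal 3 had 1 cell in cluster 3 and stood at 15.5 CPM in cluster 4. Whether clusters 3 and 4 differ was not tested. The shallow superficial-like cluster 8 shared the markers of cluster 1 but held Myh7 in 2 of 36 cells (9.76 CPM). Clusters 9, 10 and 11 had 0 counts. Every one of the 9 sums of cluster 1 exceeded the 20 sums of other clusters, the highest of which was 29.3 CPM. This was so for 0.117% of 12842 genes. As with the pair above, these sums chose the gene, so nothing is read from that count.

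Myl4, the atrial and embryonic essential light chain, had no single home. It was counted in 121 cells in 10 of the 11 clusters, with a median of 10 counts per positive cell, beside 12 for Myh7, 16 for Tnnc2 and 27 for Pygm. The largest shares of cells were 15 of 24 in the layer 5 IT-like cluster 9 (62.5%, 40.6% to 81.2%) and 6 of 11 in the unnamed cluster 11 (54.5%, 23.4% to 83.3%). The other layer 5 IT-like cluster, number 6, held it in 7 of 70 cells (10.0%, 4.12% to 19.5%). In cluster 9 the sums of the 3 animals were 46.5, 79.8 and 76.1 CPM. In the layer 6 IT-like cluster 4 they were 157, 46.4 and 28.2 CPM, and in the layer 6 CT-like cluster 5 they were 31.6, 33.2 and 42.6 CPM. The values of cluster 4 overlapped with both others, whereas all 3 animals stood higher in cluster 9 than in cluster 5. The only sample with 10 cells of cluster 4 stood at 3.51 CPM. Cluster 11 stood highest over all cells at 563 CPM, but 1 cell of animal 3 held 388 of its 680 counts, and the other 10 cells gave 267 CPM. Per animal that cluster stood at 203.8, 64.5 and 779 CPM, from 2, 3 and 6 cells. The retrosplenial-like clusters 1 and 2 stood lower, at 9.43 and 4.95 CPM, as did the layer 5 clusters 3, 6 and 7, at 9.12, 8.54 and 5.21 CPM. Cluster 8, with a median total of 69763 counts per cell, had 0 counts of Myl4 in 36 cells, which allows a share of cells with a count of up to 8.33%. In cluster 1 the samples ran from 0.479 CPM in sample 16 to 34.9 CPM in sample 15.

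**Figure D2:**
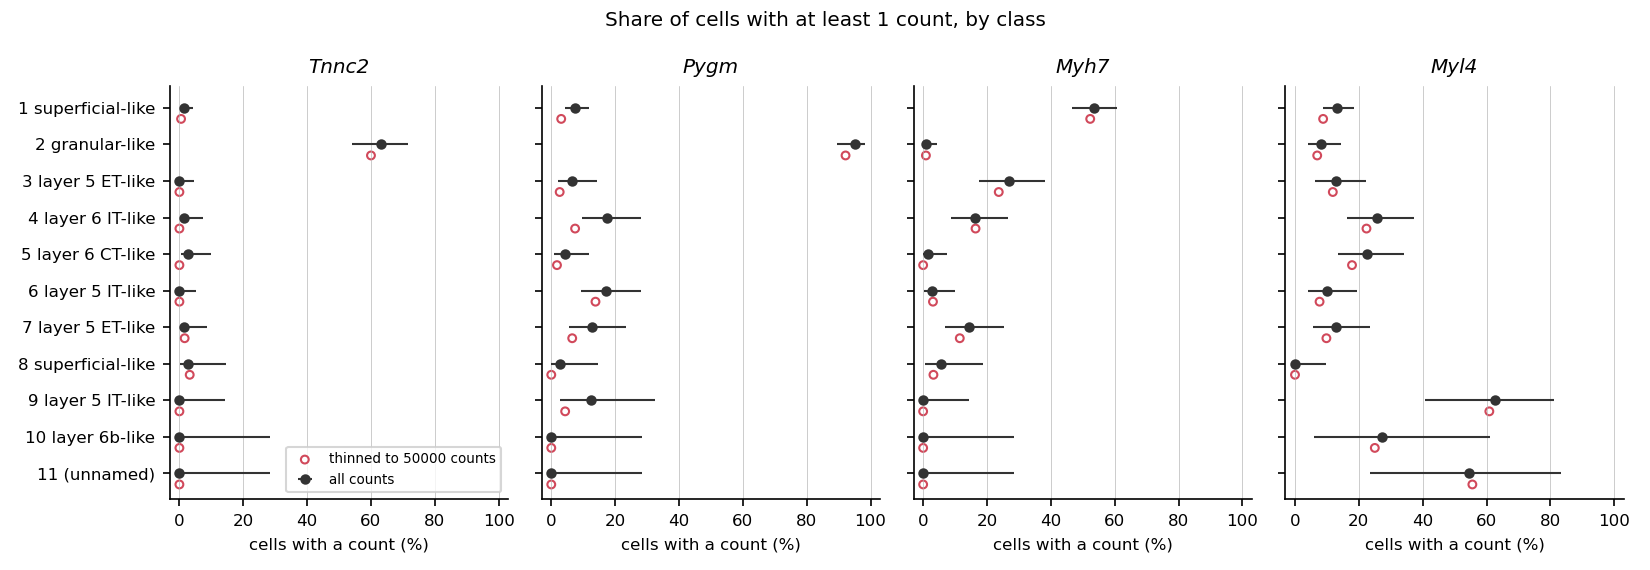
Share of cells with at least 1 count of Tnnc2, Pygm, Myh7 and Myl4 in each cluster, in percent. Filled points are all counts with exact binomial 95% intervals, and open points are cells thinned to 50000 counts. The shares of 95.1% for Pygm and 63.1% for Tnnc2 in cluster 2 and of 53.7% for Myh7 in cluster 1 changed little with thinning.

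Most counts of Acta2 and Myl9 lay in 1 cell, and over the other cells both were near 0, so the description as genes of cortical neurons was not borne out for them. Acta2 had 414 counts in 44 cells and Myl9 214 counts in 24 cells. A single cell held 368 of the Acta2 counts (88.9%) and 180 of the Myl9 counts (84.1%). No other cell held more than 2 counts of Acta2 or 7 of Myl9. The cell came from sample 3, animal 1, anterior level, and fell in the layer 6 CT-like cluster 5, with a total of 39452 counts over 3631 genes. It also held 145 of the 220 counts of Myh11, the smooth muscle myosin heavy chain, 46 of 180 of Tagln, an actin-binding protein of smooth muscle, 31 of 253 of the pericyte marker Rgs5, and 78 counts of Crip1 against 19 in all other cells together. Of Myh11, the next highest cell held 30 counts. The layer 6 CT markers Foxp2, Syt6, Rprm and Crym were all at 0 in it. Neuronal transcripts were present in it too. Scaled to its total, the cell stood at 152 CPM of Slc17a7 (6 counts), 1141 CPM of Tshz2 (45 counts) and 684 CPM of Ddit4l (27 counts), against 122, 572 and 111 CPM over the other cells, while Neurod6 was at 0. With this cell, Acta2 in cluster 5 stood at 53.2 CPM and Myl9 at 26.0 CPM over all cells, and without it at 0.998 and 0.428 CPM. Over the other 764 cells, 46 counts of Acta2 lay in 43 cells, 40 of which held 1 count, and no cluster exceeded 0.998 CPM. The mural list of 10 genes, 4 of which had a row, ranged from 0.348 CPM in cluster 8 to 61.3 CPM in cluster 11. Its value in cluster 11 came from 74 counts of Rgs5 in 6 cells, while Acta2 and Myl9 there had 1 and 0 counts. The endothelial list could not be read, since none of its 5 genes had a row.

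Co-detection within cells followed the classes. Tnnc2 and Pygm were counted together in 74 cells, which is 87.1% of the Tnnc2 cells and 42.0% of the Pygm cells. Multiplying the shares of the 2 genes within each cluster gives 73.8 cells, and multiplying their shares over the whole table gives 19.6. Pygm was counted in 116 of the 122 cells of cluster 2, which leaves little room for any other overlap with Tnnc2. The nearness of 74 to 73.8 therefore cannot show that the genes are independent within the cluster. Within cluster 2, cells with a count of Tnnc2 stood at 333 CPM of Pygm and those without at 283 CPM. The sign was the same in each animal, at 403 against 377 CPM, 287 against 262 CPM, and 349 against 271 CPM. In each animal the cells with Tnnc2 also had the higher median total, and its part was not tested. The other 14 pairs lay within 5 cells of their within-cluster products. Myl4 and Myh7 were counted together in 26 cells against a product of 21.9, and Myh7 and Pygm in 17 against 14.04. Acta2 and Myl9 shared 2 cells, 1 of which was the cell described above. Of the 765 cells, 330 had no count of any of the 6 genes, 284 had 1 of them, 130 had 2, 20 had 3 and 1 had 4. These are descriptions, since cells of a sample are not replicates.

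**Figure D3:**
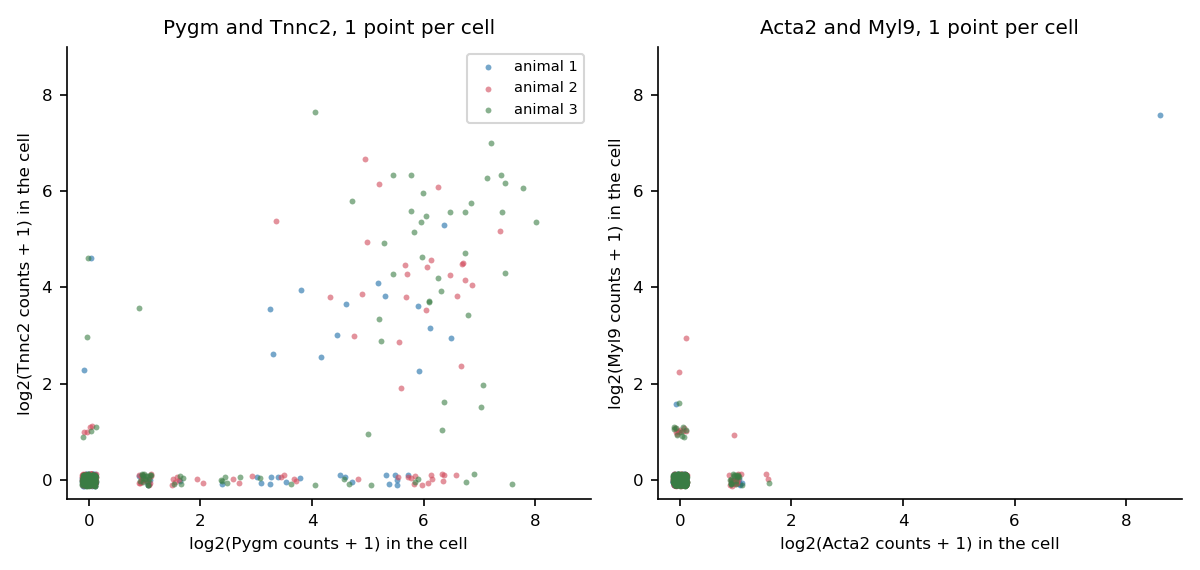
Counts of Tnnc2 against Pygm (left) and of Myl9 against Acta2 (right), with 1 point per dissociated cell, as log2(counts + 1) with a small jitter, coloured by animal. On the left 74 cells hold both genes, and on the right a single cell of animal 1, with 368 and 180 counts, stands away from all others.

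The genes whose levels were most like each member were named by a fixed rule, over 22 sums per animal and cluster, among 9136 genes. The sums share animals and depth, and the correlations are descriptions across sums. Tnnc2 and Pygm shared the same 3 genes, the kainate receptor subunit Grik1 (Pearson r of 0.97 and 0.96), Il22 and Fgd2. Myh7 went with Syt17 (0.82), the lipoprotein lipase Lpl (0.80) and neurogranin, Nrgn (0.79), and Myl4 with Atp6v1g2 (0.88), Wdr1 (0.87) and St3gal5 (0.84). For Acta2 and Myl9 the first gene was Crip1 (0.91 and 0.92). Without the cell described above these became -0.24 and -0.10.

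A wider muscle panel was described beside the members, with 63 of its 97 genes in the cell table. The muscle-determining factors Myod1, Myog, Myf5 and Myf6 were read in the spots only, with 3 counts of Myod1, 1 of Myf6 and 0 of Myog and Myf5, and were not analysed in the cells here. Mef2c, a factor shared by muscle and cortex, stood at 2004 ± 148 CPM (SD, n = 11) over the samples and between 412 and 2618 CPM in every cluster. Among troponins, Tnnt2 stood at 34.2 ± 14.1 CPM (SD, n = 11) and ranged from 12.2 to 52.3 CPM over clusters, with counts in every cluster. Of the glycogen enzymes, the brain phosphorylase Pygb stood between 5.39 CPM in cluster 5 and 33.3 CPM in cluster 7, with 13.6 CPM in cluster 2, inside its range elsewhere. The phosphorylase kinase subunit Phkg2 ranged from 45.5 to 93.7 CPM. Among heavy chains, the nonmuscle Myh10 was present throughout (273 to 498 CPM), and Myh14 was highest in cluster 2 (43.4 CPM), followed by clusters 8 and 1 (37.6 and 27.4 CPM). The light chain kinase Mylk3, known from heart, was highest in cluster 1 at 40.8 CPM, the cluster of Myh7, against at most 12.9 CPM elsewhere. Acta1, the skeletal actin, stood between 47.0 and 225 CPM in all 11 clusters. Another actin of the panel, Actg1, had 15 counts in 11 cells, yet 20862 counts in 1963 spots. Why the tables differ was not tested, and this limits how far actin levels in the cells can be read.

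In the sections, 6 genes were read over 1973 spots (1022 in S4 and 951 in S8, with median totals of 8266.5 and 6705 counts). Spots were grouped into 10 zones from genes other than the members, the panel and the vessel markers, and zones are called by their leading genes. Zone 1 was led by Tshz2, Nrep, Cbln1, C1ql2, Slc17a6 and Hsd11b1. Of these, Tshz2 and Hsd11b1 are on the granular list, but Tshz2 also led in several other clusters of cells. C1ql2 was the first leading gene of the layer 5 ET-like clusters 3 and 7. Of the 14 Tnnc2 counts in the sections 9 lay in zone 1, in 9 of 309 spots (2.91%). By section these were 6 of 7 counts in S4 and 3 of 7 in S8, where zone 1 (2.75 CPM of Tnnc2) stood below zones 9 and 7 (3.30 and 2.81 CPM, from 1 count each). Pygm was counted in 77 of the 309 spots of zone 1 (24.9%, 20.2% to 30.1%) at 42.6 CPM, and over both sections in every other zone in at most 11.6% of spots and at most 16.8 CPM. Zone 1 was the highest for Pygm in each section, at 44.01 CPM in S4, where zone 6 followed at 20.1 CPM, and at 41.3 CPM in S8, where zones 7 and 9 followed at 28.1 and 26.4 CPM. Spots with Pygm held the granular retrosplenial list at 175 CPM against 104 CPM in the other spots of S4, and at 180 against 114 CPM in S8. They also held the layer 5 NP (near-projecting) list, which shares Tshz2 with the granular list, at 109 against 53.0 CPM in S4 and at 92.1 against 62.5 CPM in S8.

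Myh7 was counted in 339 spots. It stood at 109 CPM in zone 4 (Nnat, Calb2, Trh, Dlk1), in 117 of 255 spots. In zone 3 (Cux2, Rasgrf2, Lamp5) it stood at 50.9 CPM, in 86 of 267 spots, and elsewhere at 5.65 to 34.6 CPM. Spots with Myh7 held the superficial retrosplenial list at 501 against 273 CPM in S4 and 423 against 254 CPM in S8. They also held the fibroblast and meninges list at 97.4 against 44.2 CPM in S4 and 60.4 against 32.4 CPM in S8, and the layer 6 IT list, which includes Penk, at 105 against 44.7 CPM in S4 and 72.0 against 45.4 CPM in S8. The part of these lists in the Myh7 counts was not tested. Myl4 was counted in 397 spots and had a different map. It stood at 111 CPM in zone 6 (Fezf2, Hs3st2), in 102 of 189 spots. In zone 4, where Myh7 was highest, it stood at 2.85 CPM. In zone 5 (Ighm, Trbc2, Gadd45a, Foxp2, Mobp) it stood at 84.7 CPM, in 102 of 221 spots. Zone 9, set apart by hemoglobin genes, came next at 66.1 CPM of Myl4. In S4, spots with Myl4 held the hemoglobin list at 1958 against 1213 CPM, whereas in S8 they held it at 1195 against 1599 CPM. The oligodendrocyte list stood at 2679 against 1643 CPM in S4 and 3098 against 2167 CPM in S8. Although the layer 6 IT-like cluster 4 held Myl4 in the cells, the layer 6 IT list was lower in spots with Myl4. It stood at 28.6 against 64.7 CPM in S4 and 31.8 against 54.7 CPM in S8. The layer 6b list was higher, at 70.0 against 45.5 CPM in S4 and 82.8 against 55.3 CPM in S8. The layer 6 CT list differed between sections, at 239 against 243 CPM in S4 and 330 against 214 CPM in S8. The layer 5 IT list stood at 188 against 155 CPM in S4 and 165 against 151 CPM in S8. For the layer 5 ET list the values were 218 against 168 CPM in S4 and 206 against 190 CPM in S8. The part of these lists in the Myl4 counts was not tested.

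Acta2 (76 counts in 50 spots) and Myl9 (137 counts in 125 spots) were sparse. Their levels were highest in zone 7, led by Ptgds and Myoc. Acta2 stood there at 15.6 CPM in 6 of 161 spots, and Myl9 in 13 of 161 spots, 15 counts in all. In zone 1, Acta2 stood at 1.87 CPM in S4 and 13.8 CPM in S8, and in zone 7 at 20.9 and 8.43 CPM, so the highest zone differed between the sections. For Myl9 it differed too, with zone 7 highest in S4 (23.0 CPM) and zone 1 in S8 (13.8 CPM). The pair was counted together in 12 spots, against 3.72 from the product of their shares within zones, while Tnnc2 and Pygm shared 6 spots against 2.78. Spots with Acta2 held the mural list, now with 10 of 10 genes, at 255 against 98.2 CPM in S4 and 330 against 100.5 CPM in S8. Myh11 was counted in 5 of 27 spots with Acta2 and 9 of 995 without in S4, and in 3 of 23 and 9 of 928 in S8. The fibroblast and meninges list stood at 242 against 48.3 CPM in S4 and 202 against 33.8 CPM in S8. For Myl9 the mural list stood at 175 against 96.6 CPM in S4 and 176 against 102 CPM in S8. The fibroblast and meninges list was higher in spots with Myl9 in S4 (97.8 against 50.2 CPM) and lower in S8 (31.7 against 38.1 CPM). The part of these cell types in the Acta2 and Myl9 counts was not tested.

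**Figure D4:**
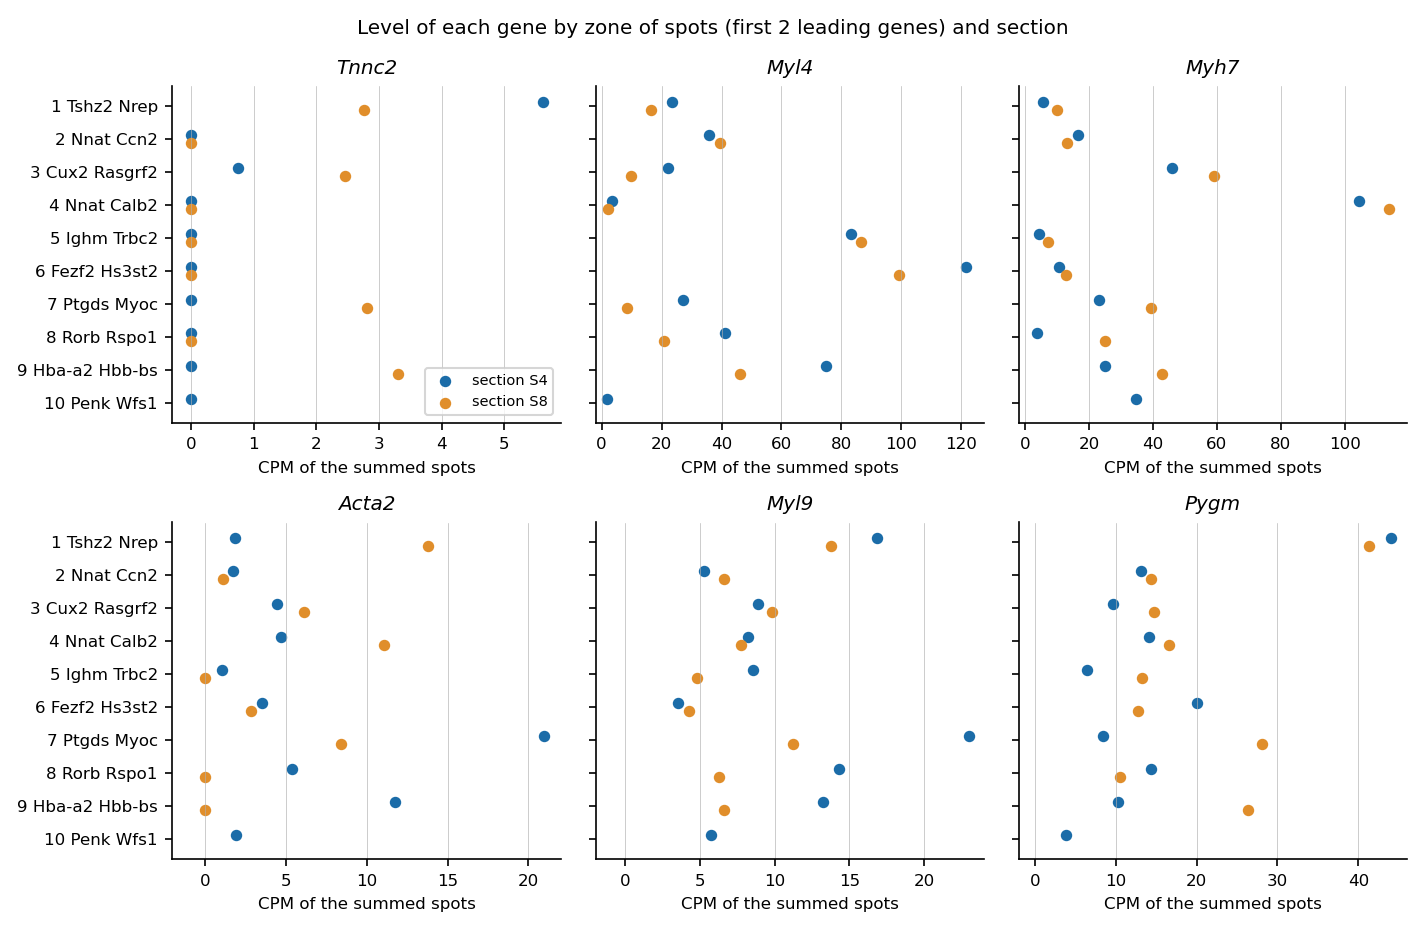
Level of the 6 genes in each zone of spots, in CPM of the summed spots on a linear axis that differs between panels, with 1 point per section. Zone 10 was present in S4 only. In both sections Pygm is highest in zone 1, Myh7 in zone 4 and then zone 3, and Myl4 in zone 6 and then zone 5, which in S4 lies close to zone 9 (83.2 and 75.0 CPM), whereas a Tnnc2 point rests on at most 6 counts and Acta2 and Myl9 differ between sections.

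Over the sums per section and zone (19 sums, 10477 genes) the genes most like Myh7 were Auts2 (r of 0.90), Gabra2 and again Lpl (0.87), and those most like Myl4 were Lypd6b (0.90), Trbc2 and Etv5. For Pygm they were Mettl16 (0.77), Ppp1r14b and Bcl7c, none of which was among its 3 in the cells. For Myl9 the first was the intermediate filament gene Vim (0.82), and for Acta2 the vascular adhesion gene Vcam1 (0.77). The Tnnc2 order, led by Cxcl14 (0.77), rests on 14 counts.

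The dissection levels were not used to choose the genes and could be tested, with edgeR's quasi-likelihood test on sums per animal and level and the animal as a block. The comparisons of posterior and of medium with anterior share the anterior sums. None of the 5 members that passed the filter on low counts was called in either contrast (adjusted p under 0.05 and a log2 fold change of at least 1), against 0.0855% of 14029 genes in posterior against anterior (12 genes, 826 at an unadjusted p under 0.05) and 0.00713% in medium against anterior (1 gene, 594 at an unadjusted p under 0.05). DESeq2 called 111 and 13 genes, and no member. Acta2 did not pass the filter, and Myl9 (log2 fold change -3.26, SE 1.96, edgeR adjusted p = 0.995) passed it only with the cell of 180 counts, an anterior cell of animal 1. Myl4 came nearest. It stood at 49.9, 21.4 and 40.1 CPM in the anterior cells of animals 1, 2 and 3, at 15.3, 11.5 and 17.8 CPM in the medium cells and at 16.3, 17.8 and 9.46 CPM in the posterior cells. Every anterior value lay above every medium and posterior value, as for 1.02% of 12992 genes. The log2 difference of posterior from anterior was -1.30 (SE 0.38, p = 0.00608, edgeR adjusted p = 0.537, DESeq2 adjusted p = 0.0809) and that of medium from anterior -1.29 (SE 0.38, edgeR adjusted p = 0.932), lower in 3 of 3 animals each time. The 388-count cell was an anterior cell of animal 3. Without it that value was 23.4 CPM, still above the others, and the log2 fold changes were -1.05 and -0.99. The cells differed in makeup between levels. Of the 24 cells of cluster 9, 17 were anterior, 1 medium and 6 posterior, and cluster 3 had 76 of its 78 cells in the posterior level.

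The test called neither Tnnc2 nor Pygm, whose values varied widely over animals. In anterior cells of animals 1, 2 and 3, Tnnc2 stood at 7.75, 17.02 and 16.4 CPM and Pygm at 86.7, 81.97 and 50.7 CPM. In posterior cells of animals 1 and 3, Tnnc2 stood at 23.4 and 25.7 CPM and Pygm at 80.1 and 60.8 CPM. Among the 109 posterior cells of animal 2, Tnnc2 had 0 counts and Pygm 2.27 CPM (26 counts), and only 3 of these cells belonged to cluster 2. Those 3 cells held 0 counts of either gene in 363077 counts. The log2 fold changes of posterior against anterior were -0.15 for Tnnc2 (SE 1.13, edgeR adjusted p = 0.9998) and -1.05 for Pygm (SE 0.78, edgeR adjusted p = 0.9998). Without animal 2 they were 1.13 (SE 0.46, edgeR adjusted p = 0.919) and 0.07 (SE 0.27, edgeR adjusted p = 1.00). Myh7 varied among animals, from 18.6, 13.9 and 33.2 CPM in anterior cells to 9.75, 26.9 and 18.3 CPM in posterior cells (log2 fold change -0.34, SE 0.41, edgeR adjusted p = 0.9998), with values that overlapped.

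In clusters 1, 2, 4 and 6 at least 2 animals had 5 or more cells at both levels, and posterior was tested against anterior within the cluster. Smaller sums of the remaining animal also entered the fit, from 2 posterior cells of animal 1 in cluster 1 and 3 of animal 2 in cluster 2. Only some members passed the filter on low counts and were tested. These were Myl4 in each of the clusters, Myh7 in clusters 1 and 4, Pygm in clusters 2 and 6, and Tnnc2 in cluster 2. None of them was called, against 0%, 0%, 0.0103% and 0.0095% of genes. At an unadjusted p under 0.05 edgeR had 289, 225, 377 and 367 genes. In cluster 2, Pygm stood at 487, 289 and 403 CPM in the anterior cells of the 3 animals and at 353, 0 and 305 CPM in the posterior cells, a log2 difference of -1.45 (SE 0.79, edgeR adjusted p = 0.9997). The 0 is that of the 3 cells of animal 2, where 3 counts would have been 8.26 CPM. Pygm was called lower without the filter on low counts (-1.48, edgeR adjusted p = 0.00727) and without animal 1 (-2.38, edgeR adjusted p = 0.00282), fits that both kept those 3 cells. Without animal 2 it was -0.44 (edgeR adjusted p = 0.9996). Tnnc2 in cluster 2 had a difference of -0.51 (SE 0.95, edgeR adjusted p = 0.9997), and of 0.54 without animal 2. Myh7 in cluster 1 had a log2 difference of 0.64 (SE 0.47, edgeR adjusted p = 0.9999), with 55.7, 63.2 and 66.8 CPM in anterior cells and 209, 86.9 and 65.7 CPM in posterior cells, where the 209 CPM came from 2 cells. Myl4 in cluster 4 had a log2 difference of -1.13 (SE 0.73, edgeR adjusted p = 0.9994). Of the muscle panel, 58 genes were tested over all neurons and 0 were called in either contrast by edgeR, with median log2 fold changes of -0.27 and -0.14, beside 0.01 and -0.04 over all genes.

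**Figure D5:**
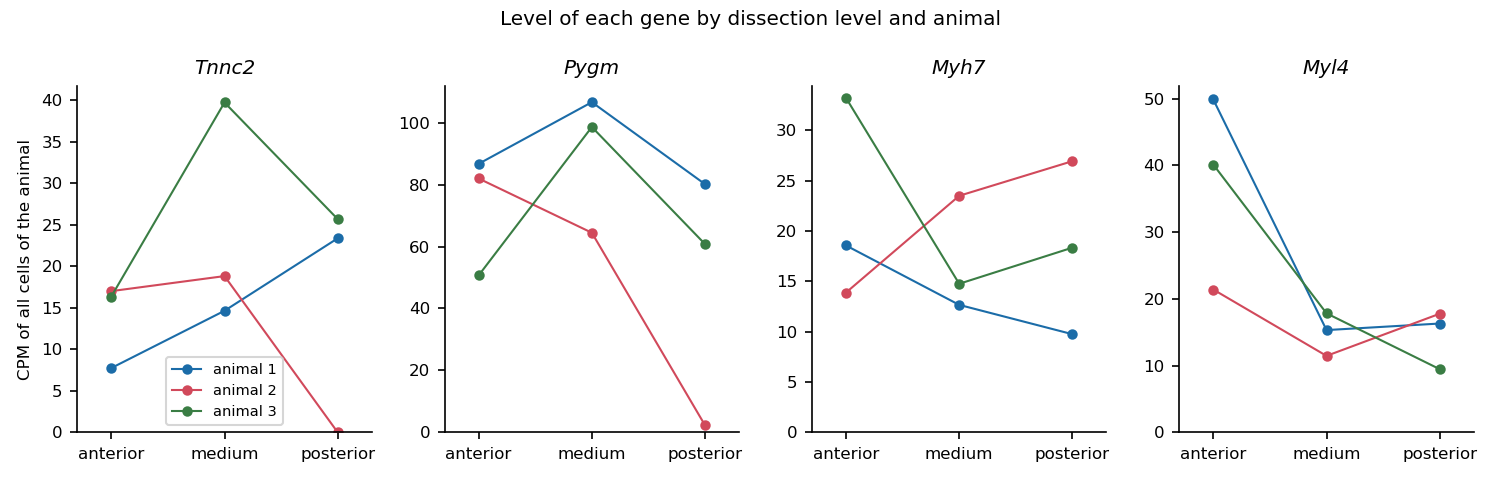
Level of Tnnc2, Pygm, Myh7 and Myl4 over all cells of an animal at each dissection level, in CPM, with 1 line per animal. Myl4 is highest in the anterior cells of all 3 animals, and the posterior value of animal 2 is 0 for Tnnc2 and 2.27 CPM for Pygm.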

How the data were processed

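The authors deposited whole-number counts per gene for dissociated cells and for Visium spots, read as counts from the values, and a table with the animal of each cell. Per the submitters' processing notes, NCBIM37 and Seurat go with the cells, and mm10 and Space Ranger also with the sections. The aligner, the filters and whether cell counts are reads or molecules are not given in the sources used here. In the deposited cell table every gene had a count in at least 10 cells, so a gene without a row may lie below that. The count columns left without a sample numbered 0. No doublet caller was run. Of the 331 barcodes in the names of the cells 237 occur in more than 1 sample, and 162 spot barcodes occur in both sections.

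The members, the lists and the tests were chosen with earlier results of these data known. Named genes were the 6 members, for each the 3 genes with the highest Pearson correlation of log2(CPM + 1) among genes with a mean of at least 5 CPM, the most abundant panel genes per role, and the marker lists of other cell types; other panel genes in the text were chosen after their values were seen. Cells were clustered with scanpy 1.11.5 (2000 variable genes, 30 principal components, 15 neighbours, Leiden resolution 1) without members and panel. A cluster was named where at least 3 markers of a type, and most of those with a row, led by a log2 difference of 1 and were present in 25% of cells. No other list could have more of its markers among the 10 leading genes. This rule was set after the clusters were seen. Counts were summed per sample or animal, with at least 10 cells per sum where samples are averaged. Levels were tested with edgeR 4.0.16 (filterByExpr, TMM, quasi-likelihood, Benjamini-Hochberg), with DESeq2 1.42.0 as an alternative, on sums per animal and level with the animal as a block, since the same animals gave every level. The edgeR step was tested on simulated data. Standard errors are the fold change over the square root of F. Pooled slices and 3 animals limit precision.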

Additional observations from a re-analysis of the deposited data

Results flagged for a closer look

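In 17 groups of 4 to 10 samples with at least 10 cells of a cluster, 6 had a highest sample far from the rest. The rule flags about 1 in 20 groups by chance where values are normally distributed. That rate cannot be set against the 6, since several rest on few counts, such as 2 of Tnnc2 in sample 12 and 3 of Acta2 in sample 13. None of the 6 concerns a gene in the cluster where it stood highest. In cluster 1, Myl4 stood at 34.9 CPM in sample 15 with the next sample at 11.3 CPM, Pygm at 5.28 CPM in sample 15 with the next at 1.92 CPM, and Myl9 at 4.44 CPM in sample 12 with the next at 0.363 CPM. Also in cluster 1, Acta2 stood at 1.72 CPM in sample 13 with the next at 0.643 CPM, and Tnnc2 at 1.11 CPM in sample 12 with the next at 0.240 CPM. In cluster 2, Myh7 stood at 8.09 CPM in sample 11 and at 0 in the other samples.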

How the results depend on the processing

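The 3 animals, the sparse spots and the single cells that hold many counts limit these results. Levels of Tnnc2, Pygm and Myh7 in their clusters moved by less than 1 SD under the other cluster resolutions, clustering with all genes, animal sums and TMM library sizes. Myl4 in cluster 4 was 3.51 CPM in the only sample with 10 cells, against 77.2 CPM over animals, an alternative chosen after seeing the data. Leaving out 1 animal moved the Tnnc2 share in cluster 2 between 52.0% and 68.9%, and without animal 1 the mean Acta2 level of cluster 5 went from 229 to 0.937 CPM. Asking for 3 counts left a share of 1.41% for Acta2 and for Myl9 in cluster 5, and 100% of Acta2 cells with Myl9, which is the 1 cell. After thinning this was 0%, but thinning to 50000 counts left out that cell, which has 39452 counts. The 0% was therefore fixed beforehand.

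Asking for 2 counts in a spot, the shares were 0% for Tnnc2 and 4.21% for Pygm in zone 1, 24.3% for Myl4 in zone 6, 20.8% for Myh7 in zone 4, and 1.24% for Acta2 and 0.621% for Myl9 in zone 7. Thinned to 3000 counts a spot, they were 1.32% for Tnnc2, 12.3% for Pygm, 32.3% for Myl4, 24.8% for Myh7 and 3.29% for Myl9. Without centring within sections, Myl4 in its highest zone was 46.4%.

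The replicate block is the animal. Without the block, genes called in posterior against anterior were 1 in place of 12 over all neurons and 0 in place of 1 in cluster 6, and the log2 difference of Tnnc2 turned to 0.23 over all neurons and 0.0196 in cluster 2. The block changed no call of a member. DESeq2 called 111 genes in posterior and 13 in medium against anterior, and 1, 48 and 9 in clusters 2, 4 and 6. With no filter on low counts, 6, 6 and 3 genes were called in clusters 2, 4 and 6, Pygm among those of cluster 2. After thinning, 0 were called in clusters 4 and 6, and Tnnc2 over all neurons was 0.0803. Leaving out 1 animal gave 1 to 10 calls in posterior and 1 to 2 in medium against anterior, 0 to 8 in cluster 2, 0 to 1 in cluster 4, and 0 in cluster 6, where the fit could be made without animal 1 only. Over these fits the posterior difference ran from -1.39 to 1.13 for Tnnc2, -0.89 to 0.000828 for Myh7 and -1.92 to 0.0662 for Pygm. The medium difference ran from -0.96 to 0.0282 for Myh7 and -0.17 to 0.58 for Pygm. In cluster 2 the posterior difference ran from -1.72 to 0.54 for Tnnc2, and that of Myl4 ran up to 1.20 (1.14 without animal 1). The cause was not tested.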
